A study of Mus musculus with 12 samples.

Results

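The genes described here encode the machinery of mitosis and cytokinesis, read in bulk RNA sequencing of mouse bone marrow during treatment with an antibody against CD137. They were chosen by name from a list of 34, of which 31 were in the deposited table of 23134 genes. All 31 passed the filter on low values, which left 14883 genes for testing. Kif11, Kif20a and Ndc80, also on the list, were not analysed here. All samples were total bone marrow cells of C57BL/6 mice that bore Vk12653, a transplantable mouse myeloma line. The untreated group was taken at day 10 after injection of the myeloma cells. The other groups received the CD137 agonist antibody 3H3 by repeated intraperitoneal injection at a 10 µg dose. They were taken at day 4 of treatment (day 14 after injection), day 11 (day 21) and day 18 (day 28). Each of the 4 groups held 3 samples. Time under antibody and time since injection rose together, and later untreated marrow was not analysed here, so the effects of antibody and of elapsed time cannot be told apart. The labels do not say whether a sample was 1 mouse, so p-values measure the spread between these samples, which may be technical.

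Mitosis separates the copied chromosomes into a pair of daughter cells. Cyclin B with Cdk1 drives entry, the spindle checkpoint holds the cell until each kinetochore is attached to microtubules, and the anaphase promoting complex then releases the chromosomes. Transcripts of this machinery accumulate in G2 and mitosis under the MuvB complex with B-Myb and FoxM1, and are repressed in resting cells by the related DREAM complex. In healthy bone marrow they come mainly from dividing precursors of red cells, granulocytes and B cells, and mature neutrophils carry little of them. The mice here bore myeloma, and which cells carried these transcripts was not measured.

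The promoters of these genes often hold a CHR element (cell cycle genes homology region), through which MuvB complexes bind, and CCAAT boxes, bound by NF-Y. RefSeq windows on GRCm38.p6, from 250 bases before to 50 after the listed start, were at hand for 28 of the 31 genes and were missing for Tpx2, Ccna2 and Aurkb. Windows are shown for 4 genes that rose in at least 1 comparison with untreated marrow and for the checkpoint gene Bub3. Bub3 had no adjusted p under 0.05. All windows are printed 5′ to 3′ on the gene's strand. They lie at chr4:124936868-124937167 on the minus strand (Cdca8), chrX:100625815-100626114 on the plus strand (Kif4), chr7:122159185-122159484 on the plus strand (Plk1), chr11:99024140-99024439 on the minus strand (Top2a) and chr7:131560120-131560419 on the plus strand (Bub3). Capitals mark the CHR letters TTTGAA with the reverse complement TTCAAA, the palindromic variant TTCGAA, and CCAAT boxes, read as ATTGG on the other strand. In Cdca8 a TTTGAA and an ATTGG share bases.
Cdca8: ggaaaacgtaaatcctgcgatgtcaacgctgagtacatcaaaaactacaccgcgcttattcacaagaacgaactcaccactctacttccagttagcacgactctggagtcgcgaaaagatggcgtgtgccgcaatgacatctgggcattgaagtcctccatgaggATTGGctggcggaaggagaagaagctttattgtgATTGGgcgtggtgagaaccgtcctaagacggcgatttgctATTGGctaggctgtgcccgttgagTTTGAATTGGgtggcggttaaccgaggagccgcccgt
Kif4: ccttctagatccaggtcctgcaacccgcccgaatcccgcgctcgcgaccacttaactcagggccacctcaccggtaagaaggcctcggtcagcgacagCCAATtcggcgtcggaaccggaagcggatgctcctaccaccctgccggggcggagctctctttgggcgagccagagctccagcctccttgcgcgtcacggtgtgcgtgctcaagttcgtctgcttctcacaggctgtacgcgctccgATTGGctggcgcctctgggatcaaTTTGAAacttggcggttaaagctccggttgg
Plk1: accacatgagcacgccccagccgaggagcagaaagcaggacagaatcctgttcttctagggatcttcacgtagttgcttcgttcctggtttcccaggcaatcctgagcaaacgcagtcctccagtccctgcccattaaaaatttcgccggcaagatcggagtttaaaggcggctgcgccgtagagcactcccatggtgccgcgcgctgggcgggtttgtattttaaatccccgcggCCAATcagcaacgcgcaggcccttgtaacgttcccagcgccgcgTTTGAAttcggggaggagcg
Top2a: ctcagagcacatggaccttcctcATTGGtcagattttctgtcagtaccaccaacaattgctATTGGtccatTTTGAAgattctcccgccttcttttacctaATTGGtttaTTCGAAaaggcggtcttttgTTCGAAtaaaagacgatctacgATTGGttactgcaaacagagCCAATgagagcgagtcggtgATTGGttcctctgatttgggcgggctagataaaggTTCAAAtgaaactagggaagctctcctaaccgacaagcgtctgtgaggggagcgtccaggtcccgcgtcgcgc
Bub3: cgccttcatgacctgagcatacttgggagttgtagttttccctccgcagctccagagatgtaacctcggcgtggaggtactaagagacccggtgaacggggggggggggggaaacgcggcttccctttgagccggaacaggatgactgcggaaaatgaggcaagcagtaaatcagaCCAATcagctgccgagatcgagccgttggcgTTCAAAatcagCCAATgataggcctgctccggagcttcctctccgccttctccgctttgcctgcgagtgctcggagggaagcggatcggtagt

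On the gene's own strand, TTTGAA or TTCGAA was in the windows of 18 of 28 genes (64.3%) and of 3121 of all 27025 genes with a window (11.5%). CCAAT on either strand was in 22 of 28 (78.6%), against 37.9% of all. Both were in 17 of 28 (60.7%), against 4.55% of all. Bub3 had neither TTTGAA nor TTCGAA on its own strand, and it held the reverse complement of the former and a pair of CCAAT boxes. Anln and Cenpf, which also had no adjusted p under 0.05, held TTTGAA or TTCGAA on their own strand. Birc5, another such gene, held neither. These counts describe letters in a window and say nothing about which factors bind there. Whether the letters go with the changes of these genes was not tested.

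The libraries held an estimated 16.0 to 25.2 M assigned reads. The day 4 libraries were the shallowest as a group, at 16.0, 17.8 and 16.7 M against 25.2, 23.0 and 21.6 M in untreated marrow. Day 18 replicate 3 stood apart: its quality weight was 0.305, the lowest of the 12. In that sample, the shortest 25% of all tested genes by exonic length had a median log2 difference of 0.18 from the other day 18 samples, and the longest 25% had -0.16. The mitosis genes followed the same order there. The 16 longer ones, of 4919 bases or more, lay at a median of -0.16 and the 15 shorter ones at -0.03. Mki67, with 10061 bases of exon, was at -0.42 and Cenpf, with 15433, at -0.43, whereas Birc5, with 3402, was at 0.30. Untreated replicate 2 had the same relation to length in weaker form, with a Spearman coefficient of -0.24 over all genes against -0.30 in day 18 replicate 3. Results are therefore also given without these samples where that changed a call.

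**Figure D1:**
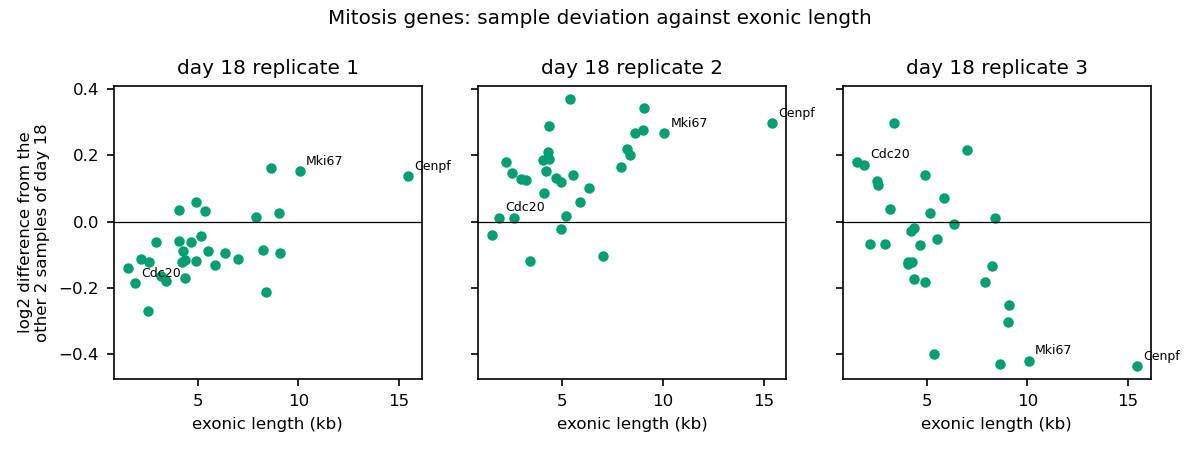
Log2 difference of each mitosis gene from the other 2 samples of day 18 (vertical axis) against its exonic length in kilobases (horizontal axis), with 1 panel per day 18 replicate and 1 point per gene. In replicate 3 long genes lie low, with Cenpf at -0.43 and Mki67 at -0.42, and replicates 1 and 2 slope the other way. Replicate 3 is part of the reference for replicates 1 and 2, so their opposite slopes are in part built in.

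The 31 genes were well expressed in every sample. Per kilobase of exon, the mean over the 12 samples ran from 175 normalised counts in Cenpf to 2141 in Top2a, with a median of 624. Within a gene, the highest sample exceeded the lowest by a factor of 1.157 (Cenpa, the histone H3 variant of centromeres) to 1.575 (Top2a). The genes together made up 0.529% to 0.648% of all normalised counts of a sample.

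At day 4 of antibody, mitosis transcripts stood slightly above untreated marrow across all roles. Cdca8, Kif4 and Tpx2, a passenger subunit and a pair of spindle proteins, rose by 17.9% to 21.6%. The median log2 difference of the 31 genes was 0.19, or 14.2%, and all 31 lay above 0, against a median of 0.0058 and 51.0% of all tested genes above 0. The called share was 3 of 31 higher (limma, adjusted p under 0.05) against a background of 2.4% of genes called higher and 4.64% called in either direction, and 21 (67.7%) had an unadjusted p under 0.05, against 20.0% of all genes. In 27 of the 31 genes the 3 day 4 samples lay above the 3 untreated ones without overlap, against 13.5% of all genes. By sample, the median gene stood 10.2%, 19.2% and 13.9% above the untreated mean in replicates 1 to 3, while the untreated samples lay at 4.77%, -1.75% and -2.21%. The calls were few and fragile. The count was 1 without untreated replicate 1, 0 without untreated replicate 2 or 3 or day 4 replicate 2 or 3, and 5 without day 18 replicate 3, and it was 0 with estimated depth in the model, where the median was 0.27. After scaling to equal totals it was also 0, and 29 of 31 genes lay above 0, with Anln and Cenpf at -0.029 and -0.046.

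**Figure D2:**
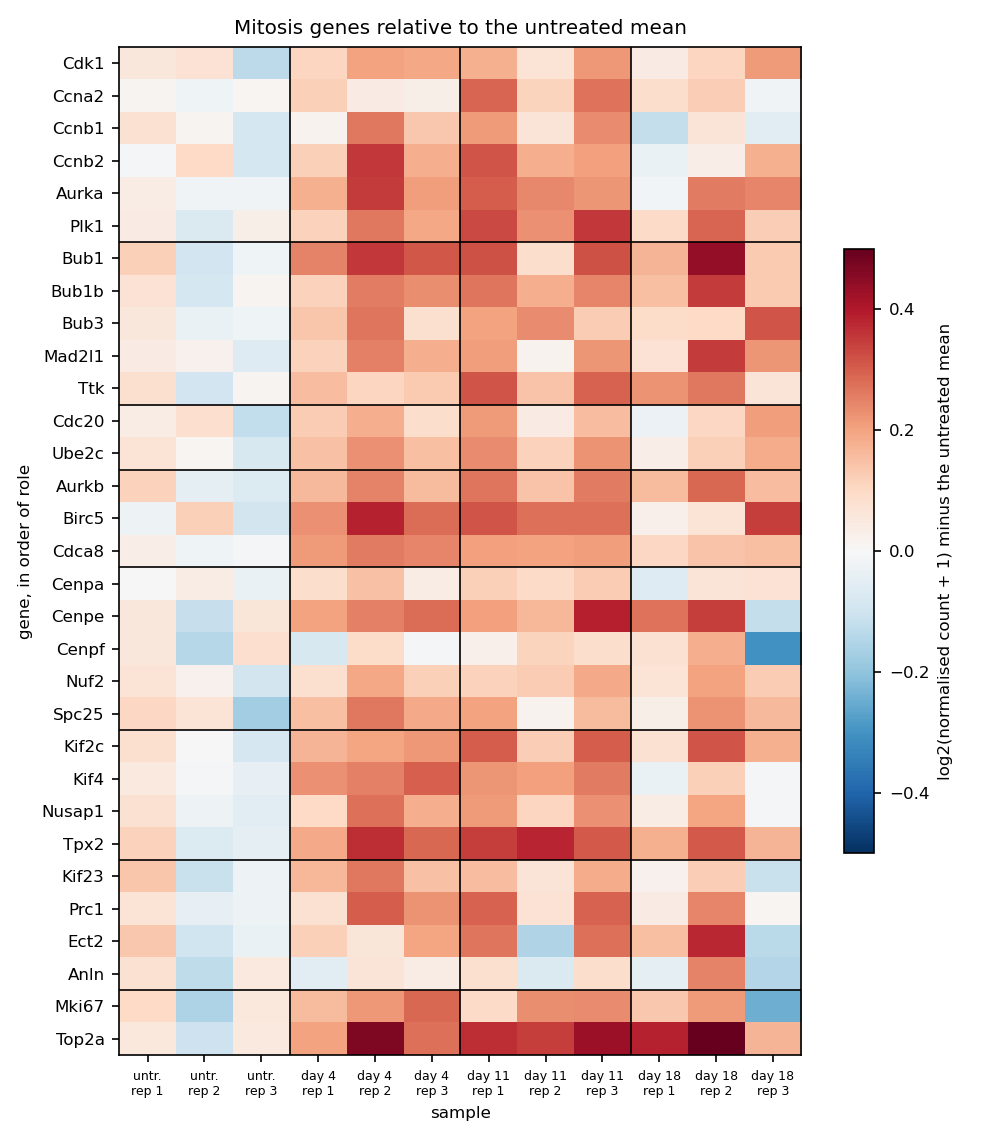
Log2(normalised count + 1) minus the untreated mean, as colour, for the 31 mitosis genes (rows, in order of role) in the 12 samples (columns, in 4 groups). Most genes lie above 0 in the day 4 and day 11 samples, and the median gene of a sample runs from -2.21% in untreated replicate 3 to 19.2% in day 4 replicate 2.

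At day 11 mitosis transcripts again stood above untreated marrow. Cdca8, Kif4, Plk1, Top2a and Tpx2 rose by 15.2% to 30.3%. The median log2 difference was 0.20, or 15.2%, and all 31 genes lay above 0, against 0.0020 and 50.5% over all genes. The 5 of 31 called higher stand beside a background of 3.2% called higher and 5.32% called in either direction, and 20 genes (64.5%) had an unadjusted p under 0.05, against 19.7% of all. Groups did not overlap, with day 11 higher, in 20 of 31 genes against 14.1% of all. The median gene stood 16.7%, 8.92% and 17.7% above the untreated mean in replicates 1 to 3, and replicate 2 was the lowest of its group for 25 genes. Without untreated replicate 2 or 3 no gene was called. The count was 1 without day 11 replicate 1 or 3, 2 without untreated replicate 1 or day 4 replicate 3, 3 without day 11 replicate 2, and 9 without day 18 replicate 3, when Birc5, Ccna2, Cenpe and Ttk were called as well. After scaling to equal totals it was 1, and 30 of 31 genes lay above 0, with Anln at -0.0082.

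At day 18 the median difference from untreated marrow was smaller. Top2a rose by 29.2% and was the 1 gene of 31 called higher, against a background of 5.29% called higher and 9.2% called in either direction. The median log2 difference was 0.13, or 9.64%, with 29 of 31 genes above 0, against 0.00028 and 50.1% over all genes. Ccnb1 at -0.04 and Cenpf at -0.02 lay below 0, and neither passed the test. Groups did not overlap, with day 18 higher, in 9 of 31 genes against 13.8% of all, and 11 genes (35.5%) had an unadjusted p under 0.05 against 23.2% of all. The median gene stood 5.24%, 15.8% and 9.46% above the untreated mean in replicates 1 to 3. No gene was called without untreated replicate 2 or 3, day 4 replicate 3, day 11 replicate 1 or day 18 replicate 2. Without day 18 replicate 3, Cenpe and Top2a were called. The called gene was Tpx2 instead of Top2a without untreated replicate 1, and Aurka without day 18 replicate 1. After scaling to equal totals no gene was called and 24 of 31 lay above 0, since Anln, Cenpa, Kif23, Kif4 and Mki67 then lay below 0 beside Ccnb1 and Cenpf. The count above 0 was 26 without untreated replicate 2 and 25 without day 18 replicate 2, and the median was 0.087 without untreated replicate 3.

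Over the 4 time points, untreated marrow had the lowest mean for 29 of the 31 genes and day 18 for Ccnb1 and Cenpf. The highest mean was at day 11 for 20 genes, at day 4 for 9 and at day 18 for Mad2l1 and Ect2. An F-test across the time points called Cdca8 (adjusted p = 0.032), Kif4 (adjusted p = 0.020) and Tpx2 (adjusted p = 0.024). These 3 of 31 are close to the 9.47% of all genes called, so the F-test showed no clear excess for the mitosis genes. It called 0 to 7 genes when 1 sample was left out. None was called without untreated replicate 2 or 3 or day 4 replicate 3, 1 without day 11 replicate 1 and 7 without day 18 replicate 3.

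**Figure D3:**
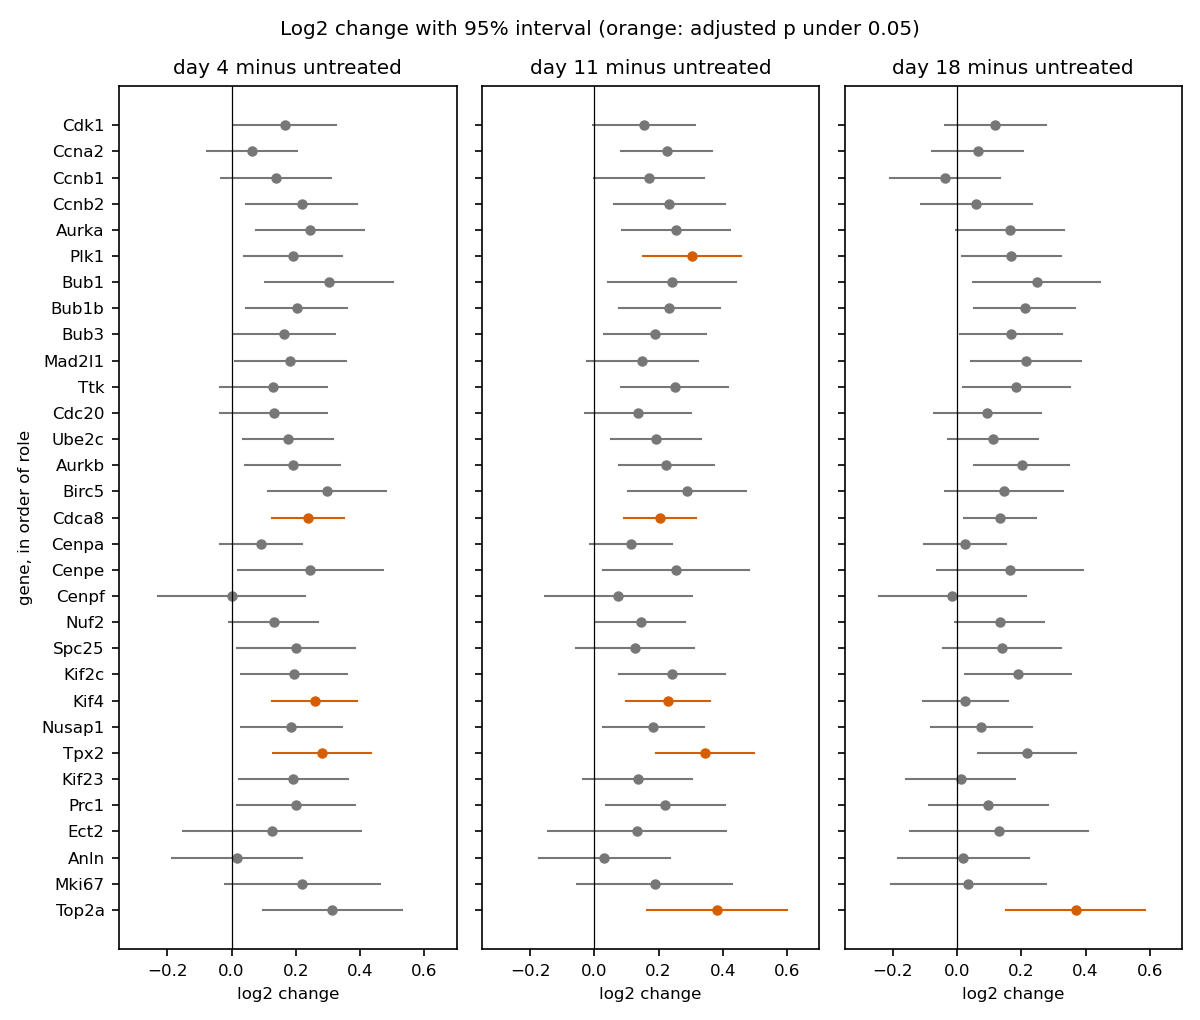
Log2 change from untreated marrow with its 95% interval (horizontal axis) for the 31 mitosis genes in order of role (vertical axis), with 1 panel per treated day and orange for an adjusted p under 0.05. Top2a has the largest estimate in each panel, at 0.31, 0.38 and 0.37, and 3, 5 and 1 genes are orange.

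Among the cyclins and entry kinases, 6 genes, Plk1 rose at day 11 and the others did not pass the test on any day. The group medians were 0.18, 0.23 and 0.09 on the log2 scale at days 4, 11 and 18. Plk1 (chr7:122159439-122169873 on GRCm38), the Polo-like kinase that matures centrosomes and promotes mitotic entry, had 1496, 1384 and 1484 normalised counts in untreated marrow. It had 1576, 1745 and 1662 at day 4, 1827, 1705 and 1857 at day 11 and 1552, 1777 and 1585 at day 18. Each treated group lay wholly above the untreated samples. The log2 change was 0.30 ± 0.07 (SE) at day 11 with an adjusted p of 0.024, which ranged from 0.017 to 0.10 when 1 sample was left out and missed the threshold without untreated replicate 2 or 3 or day 11 replicate 1 or 3. The call was also lost after scaling to equal totals and without the intensity trend. The difference was 0.19 (adjusted p = 0.15) at day 4 and 0.17 (adjusted p = 0.17) at day 18.

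Cdk1, the kinase that starts mitosis, had 2965, 2996 and 2600 normalised counts in untreated marrow. Values were 3068, 3271 and 3253 at day 4, 3223, 2984 and 3314 at day 11 and 2929, 3064 and 3300 at day 18. The day 4 samples lay above the untreated ones and the later groups overlapped them. Its log2 differences of 0.17, 0.15 and 0.12 had adjusted p of 0.22 to 0.36. Ccnb1, the cyclin B1 partner of Cdk1, had 3214, 3077 and 2867 in untreated marrow, 3088, 3662 and 3344 at day 4, 3536, 3185 and 3591 at day 11 and 2808, 3186 and 2931 at day 18. All treated groups overlapped the untreated one. Its differences were 0.14, 0.17 and -0.04, with a 95% interval at day 18 of -0.21 to 0.13. Ccna2, cyclin A2, differed by 0.22 (adjusted p = 0.066) at day 11 and by 0.06 on the other days. Ccnb2 and Aurka, the centrosomal Aurora kinase, lay at 0.22 and 0.24 at day 4 and at 0.23 and 0.25 at day 11, with adjusted p of 0.080 to 0.14.

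The spindle checkpoint genes Bub1, Bub1b, Bub3, Mad2l1 and Ttk stood above untreated marrow on each day, and none of the 5 passed the test. Their medians were 0.18, 0.23 and 0.21 at days 4, 11 and 18. At day 18, 4 of the 5 lay above untreated marrow without overlap, against 13.8% of all genes, and all 5 had an unadjusted p under 0.05, against 23.2% of all. Bub3, which brings checkpoint kinases to kinetochores, had 2692, 2526 and 2549 normalised counts in untreated marrow. It had 2853, 3115 and 2737 at day 4, 2976, 3052 and 2827 at day 11 and 2759, 2772 and 3215 at day 18. All 9 treated samples lay above the 3 untreated ones. The log2 differences were 0.16, 0.19 and 0.17, each ± 0.07, with adjusted p of 0.24, 0.17 and 0.19. Bub1, a checkpoint kinase of kinetochores, had the highest estimate of the group at day 4, 0.30 (adjusted p = 0.080). For anaphase promotion, the activator Cdc20 and the ubiquitin-conjugating enzyme Ube2c lay at 0.13 and 0.18 at day 4, 0.14 and 0.19 at day 11 and 0.09 and 0.11 at day 18, with adjusted p of 0.12 or more.

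The chromosomal passenger complex corrects faulty attachments and then guides cytokinesis. Cdca8 (chr4:124918465-124939311), its borealin subunit, had 2908, 2798 and 2823 normalised counts in untreated marrow. It had 3291, 3402 and 3367 at day 4, 3280, 3264 and 3284 at day 11 and 3057, 3141 and 3156 at day 18. No treated sample fell to the untreated range, and the day 18 samples lay below those of days 4 and 11. It rose at day 4 by a log2 change of 0.24 ± 0.05 (adjusted p = 0.021, range 0.012 to 0.086 when 1 sample was left out). It rose at day 11 by 0.20 ± 0.05 (adjusted p = 0.037, range 0.023 to 0.12). The samples whose omission ended the call were untreated replicates 1 to 3 and day 4 replicates 2 and 3 at day 4. At day 11 they were untreated replicates 1 to 3, day 4 replicate 3, day 11 replicates 1 to 3 and day 18 replicate 2. Scaling to equal totals or depth in the model ended both calls, and that of day 11 was also lost without a filter, without the intensity trend, under quantile normalisation and with the compared groups alone. The day 18 difference was 0.13 (adjusted p = 0.14). The other subunits measured, the kinase Aurkb and survivin (Birc5), lay at 0.19 and 0.30 at day 4, 0.22 and 0.29 at day 11 and 0.20 and 0.15 at day 18, and their adjusted p was 0.065 or more.

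Among centromere and kinetochore genes no gene passed the test, and the medians of the 5 measured were 0.13, 0.13 and 0.13. Cenpf, a large kinetochore and nuclear matrix protein, had 2768, 2414 and 2826 normalised counts in untreated marrow. It had 2518, 2835 and 2647 at day 4, 2711, 2873 and 2829 at day 11 and 2808, 3022 and 2156 at day 18. The groups overlapped throughout, and day 18 held both the highest and the lowest sample. Its day 4 difference was 0.00 with a 95% interval of -0.23 to 0.23, the lowest estimate of the 31 genes on that day. Without day 18 replicate 3 the day 18 difference was 0.13 in place of -0.02. Cenpe, the kinetochore kinesin, lay at 0.25, 0.25 and 0.17 and was called at days 11 and 18 when that sample was left out. Nuf2 and Spc25, subunits of the Ndc80 complex that holds microtubules, lay at 0.13 and 0.20 at day 4, 0.14 and 0.13 at day 11 and 0.13 and 0.14 at day 18. Cenpa lay at 0.09, 0.11 and 0.02.

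Of the 4 kinesins and spindle proteins measured, Kif4 and Tpx2 rose at days 4 and 11, and Kif2c and Nusap1 did not pass. Tpx2 (chr2:152847964-152895321), which activates Aurora A and nucleates spindle microtubules, had 3884, 3421 and 3474 normalised counts in untreated marrow. It had 4096, 4630 and 4374 at day 4, 4558, 4677 and 4438 at day 11 and 4058, 4438 and 4038 at day 18. All treated samples lay above all untreated ones. Its log2 changes were 0.28 ± 0.07 at day 4 (adjusted p = 0.039, range 0.025 to 0.14 when 1 sample was left out) and 0.35 ± 0.07 at day 11 (adjusted p = 0.011, range 0.0081 to 0.057). At day 11 untreated replicates 2 and 3 were the samples whose omission ended the call. At day 4 they were those samples, day 4 replicates 2 and 3 and day 11 replicates 1 and 3. The day 4 call was also lost without a filter, after scaling to equal totals, without the intensity trend, with the compared groups alone and with depth in the model, and the day 11 call in none of these. The day 18 difference was 0.22 (adjusted p = 0.072).

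Kif4 (chrX:100625737-100727214), a chromokinesin of the chromosome arms and spindle midzone, had 1542, 1482 and 1446 normalised counts in untreated marrow. It had 1744, 1773 and 1831 at day 4, 1738, 1719 and 1783 at day 11 and 1455, 1619 and 1480 at day 18. The day 4 and day 11 samples lay above all untreated and all day 18 samples, and the last 2 groups overlapped. The log2 changes were 0.26 ± 0.06 at day 4 (adjusted p = 0.029, range 0.019 to 0.12 when 1 sample was left out) and 0.23 ± 0.06 at day 11 (adjusted p = 0.045, range 0.031 to 0.16). The day 4 call was lost without untreated replicate 1, 2 or 3 or day 4 replicate 2 or 3, and the day 11 call was kept without day 18 replicate 1, 2 or 3 and lost without each of the other samples. Both calls were also lost without a filter, after scaling to equal totals, without the intensity trend and with depth in the model, and that of day 11 under quantile normalisation. At day 18 the difference was 0.03, with a 95% interval of -0.11 to 0.16. Kif2c, a microtubule depolymerase, and Nusap1, a microtubule-bundling protein, lay at 0.19 each at day 4, 0.24 and 0.18 at day 11 and 0.19 and 0.08 at day 18.

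**Figure D4:**
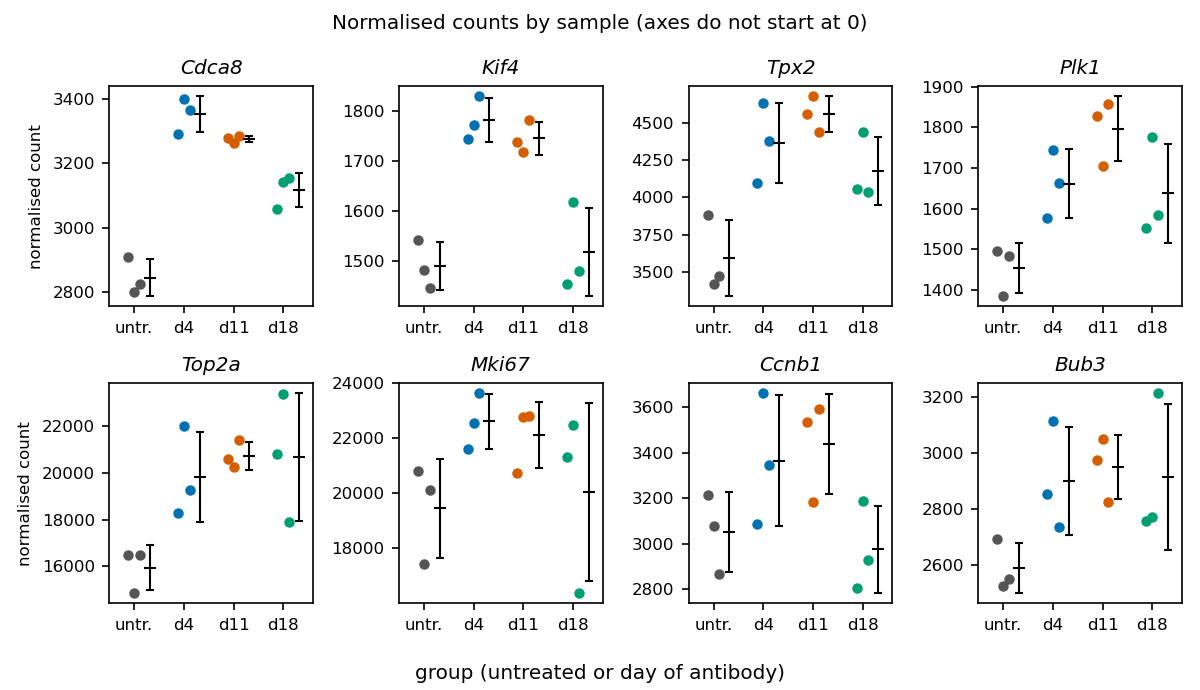
Normalised counts of named mitosis genes in the 12 samples, with 1 panel per gene, 1 point per sample, groups on the horizontal axis and vertical axes that do not start at 0. Kif4 runs from 1446 to 1542 in untreated marrow, 1744 to 1831 at day 4, 1719 to 1783 at day 11 and 1455 to 1619 at day 18. All treated groups of Ccnb1 overlap the untreated one.

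Cytokinesis genes showed no call on any day, with medians of 0.16, 0.13 and 0.06 over the 4 measured. Anln, anillin of the contractile ring, had 2301, 2002 and 2260 normalised counts in untreated marrow. It had 2107, 2286 and 2240 at day 4, 2307, 2076 and 2319 at day 11 and 2119, 2594 and 1972 at day 18. The groups overlapped, and the differences were 0.02, 0.03 and 0.02, each ± 0.09. Kif23, the centralspindlin kinesin, lay at 0.19, 0.14 and 0.01. Prc1, which bundles the midzone, lay at 0.20, 0.22 and 0.10, and Ect2, the exchange factor for RhoA, at 0.13 on each day with an SE of 0.13.

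Of the chromatin and proliferation markers, Top2a rose at days 11 and 18 and Mki67 did not pass the test. Top2a (chr11:98992943-99024189), the topoisomerase that untangles sister chromatids, had 16497, 14832 and 16475 normalised counts in untreated marrow. It had 18274, 21992 and 19248 at day 4, 20578, 20244 and 21405 at day 11 and 20804, 23367 and 17887 at day 18. All treated samples lay above all untreated ones, and day 18 was the most spread. Its log2 changes were 0.38 ± 0.10 at day 11 (adjusted p = 0.043, range 0.014 to 0.14 when 1 sample was left out) and 0.37 ± 0.10 at day 18 (adjusted p = 0.035, range 0.0072 to 0.15). The day 11 call was kept without day 4 replicate 1 or 2 or day 18 replicate 2 or 3 and lost without each of the other samples. The day 18 call was lost without untreated replicate 1, 2 or 3, day 4 replicate 3, day 11 replicate 1 or day 18 replicate 1 or 2. Under quantile normalisation the changes were 0.28 (adjusted p = 0.17) at day 11 and 0.25 (adjusted p = 0.19) at day 18. Both calls were also lost after scaling to equal totals and without the intensity trend, that of day 11 with depth in the model and that of day 18 with the compared groups alone. At day 4 the difference was 0.31 (adjusted p = 0.096).

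Mki67, which coats mitotic chromosomes and is the common marker of proliferation, had 20801, 17427 and 20121 normalised counts in untreated marrow. It had 21619, 22563 and 23638 at day 4, 20732, 22784 and 22820 at day 11 and 21319, 22462 and 16369 at day 18. The day 4 samples lay above the untreated ones, and day 18 replicate 3 was the lowest of all 12. The log2 differences were 0.22 ± 0.11 (adjusted p = 0.29), 0.19 (adjusted p = 0.38) and 0.03 (adjusted p = 0.89). Without day 18 replicate 3 the last was 0.17.

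Between treated days, Kif4 was the gene that passed the test, in 1 of 3 comparisons. From day 4 to day 11, 0 of 31 genes were called, against 1.68% of all genes. An unadjusted p under 0.05 was found for 1 gene (3.23%), against 11.8% of all. The median was 0.01, and between -0.013 and 0.044 when 1 sample was left out. From day 4 to day 18 Kif4 fell by 0.23 on the log2 scale (SE 0.06, adjusted p = 0.041), and it was the 1 gene of 31 called lower, against 2.7% of all genes called lower and 5.48% called in either direction. A share of 1 in 31 is close to that over all genes called lower. This call held without untreated replicate 1 or day 18 replicate 2 and was lost without each of the other 10 samples, with adjusted p of 0.038 to 0.16. It was also lost without a filter, without the intensity trend, with the compared groups alone and with estimated depth in the model, with adjusted p of 0.073 to 0.16. From day 11 to day 18, 28 of 31 genes lay below 0 with a median of -0.079. Over all genes, 7335 of 14883 lay below 0 and the median was 0.0022. In limma 0 of the 31 were called, against 0.00672% of all genes. An unadjusted p under 0.05 was found for 4 genes (12.9%), against 6.99% of all. Those were Ccna2 (-0.16), Ccnb1 (-0.21), Ccnb2 (-0.17) and Kif4 (-0.20), named after their values were seen. The median was -0.047, with 21 genes below 0, without day 18 replicate 1 and -0.12, with 30 below 0, without day 18 replicate 2. Without day 18 replicate 3 it was -0.066, with 22 genes below 0. With sample weights 22 genes also lay below 0, at a median of -0.076.

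Other genes of mitosis, 97 from 7 lists, also lay mostly above untreated marrow. Their medians were 0.14, 0.13 and 0.08 at days 4, 11 and 18, with 90, 90 and 78 genes above 0, and 5, 3 and 1 were called higher and 0 lower. The shares called higher were 5.15%, 3.09% and 1.03%, against 2.4%, 3.2% and 5.29% of all genes, so those of days 11 and 18 were at or below the share over all genes. Condensin genes had medians of 0.21, 0.17 and 0.06, and Ncapd2, a condensin I subunit, rose from 6948 ± 128 (SD, n = 3) to 8567 ± 548 at day 4 and 8483 ± 56.5 at day 11 (adjusted p = 0.020 each). Of the cohesion genes, Cdca5 (sororin), which protects cohesin, rose by 0.41 at day 4 and 0.26 at day 11 (adjusted p = 0.0058 and 0.048), and the acetyltransferase Esco2 rose by 0.29 at day 4 (adjusted p = 0.041). Cks2, a small subunit that binds Cdk1, had the largest change of these lists. It rose from 1936 ± 186 to 2906 ± 161 at day 4 (log2 0.59 ± 0.09, adjusted p = 0.0015) and stood at 2106 ± 227 at day 18, which was lower than day 4 by a log2 change of -0.47 (adjusted p = 0.0053). Spindle and centrosome genes had medians of 0.18, 0.17 and 0.08, with Tacc3 higher at day 4 by 0.27 (adjusted p = 0.041) and Melk at day 11 by 0.29 (adjusted p = 0.0497). The kinetochore list had medians of 0.14, 0.10 and 0.10 and no call against untreated marrow, while Cenpl and Cenph fell from day 4 to day 18 by 0.31 and 0.35 on the log2 scale (adjusted p = 0.027 and 0.045). Genes of Cdk1 control had medians of 0.10, 0.09 and 0.03. Those of G2/M transcription lay at 0.08, 0.14 and 0.08, and those of the anaphase promoting complex at 0.07, 0.04 and 0.05. Rbl2, which encodes the DREAM pocket protein p130, rose at day 18 by 0.43 (adjusted p = 0.015).

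The DNA replication list of 26 genes, beside which the mitosis genes can be read, had medians of 0.25, 0.19 and 0.13 and 8, 6 and 1 called higher. These are 30.8%, 23.1% and 3.85% of the list, against 2.4%, 3.2% and 5.29% of all genes. Lig1, DNA ligase I, rose from 4124 ± 109 to 5184 ± 290 at day 4 and 5083 ± 63.9 at day 11 (adjusted p = 0.0077 and 0.0093), and the helicase subunit Mcm3 by 0.30 on both days (adjusted p = 0.022 and 0.016). The 16 tested G1 cyclins, kinases and inhibitors had medians of 0.05, 0.07 and 0.01, with 0, 0 and 1 called. That gene was Cdkn2a, an inhibitor locus, which rose from 3.67 ± 1.53 to 34.7 ± 12.7 at day 18 (adjusted p = 0.043). Its untreated values lay below the filter limit of 10 normalised counts, so Cdkn2a was tested only because of its values in treated samples. The size of its rise rests on untreated values near the floor. This 1 call makes up 6.25% of the list, close to the 5.29% of all genes called higher on that day. The difference between lists was not tested.

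**Figure D5:**
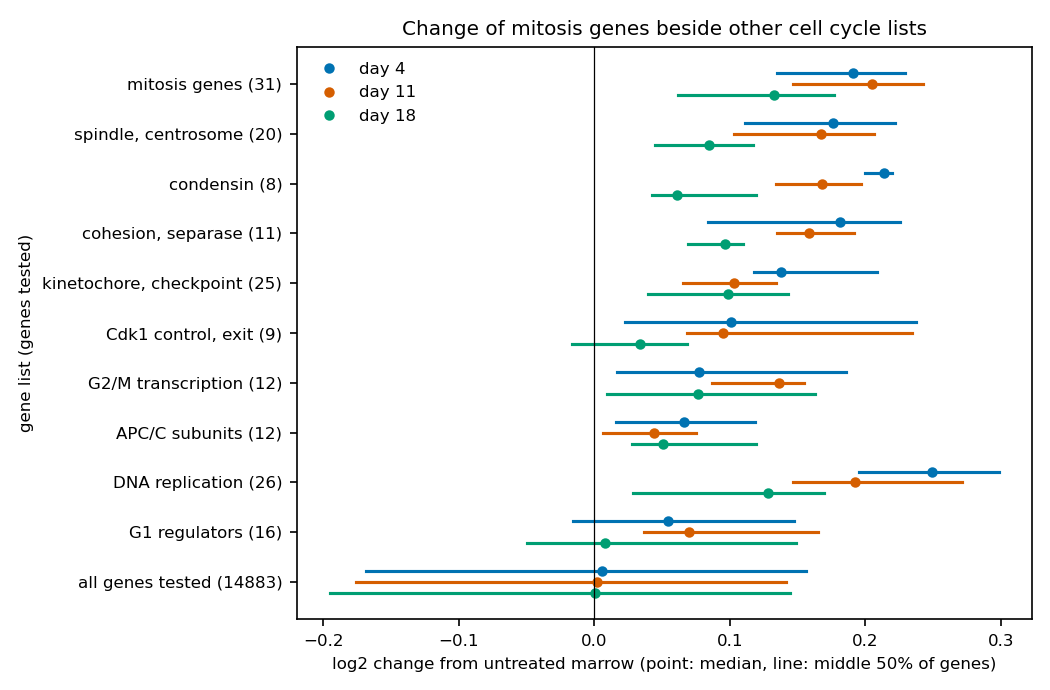
Median log2 change from untreated marrow (point) and the middle 50% of genes (line) for the mitosis genes, the other mitotic lists, DNA replication, G1 regulators and all tested genes, by treated day. The mitosis genes lie at 0.19, 0.20 and 0.13, DNA replication at 0.25, 0.19 and 0.13 and G1 regulators at 0.05, 0.07 and 0.01.

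Markers of the marrow's cell types also moved, and in bulk RNA a change in the number of dividing cells and a change in RNA per cell cannot be told apart. Of all 14883 tested genes, 357, 476 and 787 were called higher at days 4, 11 and 18 (2.4%, 3.2% and 5.29%). Called lower were 334, 316 and 582. The counts per list below stand beside these. The 7 early neutrophil markers, genes of dividing granulocyte precursors, summed to 65660 to 67839 normalised counts in untreated marrow, 73955 to 89034 at day 4, 74823 to 93198 at day 11 and 81589 to 96068 at day 18. Mpo rose on each day by 0.39, 0.38 and 0.49, and 1, 1 and 5 of the 7 were called higher. The 11 erythroid markers summed to 37996 to 59603, then 52975 to 79056, 57159 to 60214 and 27882 to 50429, with none called at days 4 and 11 and Slc4a1 among those lower at day 18. All 11 lay above 0 at day 4 (median log2 difference 0.29), 8 at day 11 (0.11) and none at day 18 (-0.49). Of 6 B cell precursor markers, 0, 2 and 1 were called lower, with sums of 9993 to 11741, 8585 to 13619, 6358 to 8300 and 7371 to 10563. Of 6 mature B cell markers, 4, 6 and 6 were called lower, with sums of 10905 to 16266, 6814 to 10883, 4797 to 4915 and 5100 to 7758. Of 8 T cell markers, 2, 7 and 7 were called higher, with sums of 1727 to 2896, 2613 to 4416, 7076 to 7603 and 7768 to 10694. Gata2 was called higher at days 11 and 18 among 8 stem and progenitor markers, whose sums stayed between 5045 and 6061. The list was mixed: 2, 6 and 4 of the 8 lay above 0 at days 4, 11 and 18, with medians of -0.13, 0.06 and 0.01. Mature neutrophil markers had no call among 7, with sums of 1351061 to 1873113. Of 5 tested plasma cell and myeloma markers, Prdm1 rose and Sdc1 fell at days 11 and 18, and the sums of the list were 4797 to 5924, 5555 to 6634, 3278 to 4751 and 3450 to 5396. Of 6 monocyte and macrophage markers, 5, 3 and 2 lay above 0, with medians of 0.20, -0.05 and -0.08 and sums of 24339 to 31136, 21178 to 30308, 29097 to 29625 and 26651 to 33411. Their 1 call was Ccr2, which fell at day 4. No listed marker in the table was at 0 in all samples. Immediate early genes, which also respond to handling, had 5, 5 and 4 of 5 called higher, with sums of 3244 to 6504 in untreated marrow, 42426 to 54362 at day 4, 7942 to 12514 at day 11 and 6954 to 10778 at day 18. What part these markers have in the differences of the mitosis genes was not tested.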

How the data were processed

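Total bone marrow RNA of 12 samples was sequenced, per the labels' protocols, as paired reads from a stranded mRNA kit. GRCm38, limma, featureCounts 1.4.6 of Subread and STAR 2.3.0 are listed, per the submitters' processing notes. The strand setting and the scaling are not given in the sources used here. The values deposited by the authors are whole-number normalised counts, treated here as a score, and no count model was fitted. Depth was estimated from the spacing of values up to 150, on the assumption of 1 scaling factor per sample.

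Values were transformed as log2(normalised count + 1), so folds of low genes are understated. Genes with at least 10 in at least 3 samples (14883) were fitted in limma 3.58.1 (R 4.3.3) over all 12 samples, with an intensity trend and two-sided tests. Benjamini-Hochberg adjustment ran over all tested genes, with a threshold of 0.05. Intervals are 95%, on 13.73 degrees of freedom. Comparisons with untreated marrow share the same 3 samples. Positions and exonic lengths came from GENCODE M21 for all 23134 identifiers.

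The genes and lists were chosen with earlier results of these data known. Values in every sample are given for genes called against untreated marrow, for those with the highest or lowest change, and for Mki67, Top2a, Cdk1, Ccnb1 and Bub3. Of other lists, at most the 4 called genes with the smallest adjusted p are named per comparison. Other scalings, filters, pseudocounts and weights and leaving out each sample were tried. The fit was also run on simulated data with independent noise and changes larger than those of the mitosis genes. That run does not show how well changes as small as theirs are found.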

Additional observations from a re-analysis of the deposited data

Results flagged for a closer look

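Kif4 was marked for a closer look because its change from untreated marrow differed between day 18 and day 4. The log2 change was 0.26 at day 4 and 0.03 at day 18, and the difference between them was -0.23 ± 0.06 (SE, limma, adjusted p = 0.041). The 3 day 18 samples all lay below the 3 day 4 samples. Kif4 was the 1 gene of 31 called lower between these days, a share close to the 2.7% of all genes called lower. The call between these days was lost in 10 of 12 omissions of a sample and in 4 of 11 other settings. Both changes are measured against the same 3 untreated samples.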

How the results depend on the processing

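The median log2 difference of the 31 mitosis genes from untreated marrow stayed above 0 in all 12 omissions of a sample and all 11 other settings, between 0.15 and 0.27 at day 4, 0.17 and 0.24 at day 11 and 0.079 and 0.16 at day 18. The counts of called genes did not hold. When 1 sample was left out they ran from 0 to 5 at day 4, 0 to 9 at day 11, 0 to 2 at day 18, 0 to 1 from day 4 to day 18 and 0 to 7 in the F-test, and stayed at 0 for the other comparisons of treated days. At days 4, 11 and 18 the counts were 10, 19 and 7 with sample weights, 0, 1 and 0 after scaling to equal totals and 1, 1 and 0 without the intensity trend. Without a filter they were 1 and 3 at days 4 and 11, and with depth in the model 0 and 2. Quantile normalisation gave 2 at day 11 and 0 at day 18, and fitting the compared groups alone gave 0 at day 18. From day 4 to day 18 the count was 0 without a filter, without the trend, with depth in the model and with the compared groups alone. From day 4 to day 11 it was 1 with weights. The F-test called 1 gene after scaling to equal totals, 0 without the trend or with depth in the model and 15 with weights.

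Signs changed for genes with small differences. Values are given for the 11 genes shown in every sample. Of the other 20, Kif23 turned below 0 at day 18 after scaling to equal totals, under quantile normalisation and without untreated replicate 2 or 3 or day 18 replicate 2, and Cenpa after scaling to equal totals. After scaling to equal totals, Anln was at -0.029, -0.0082 and -0.035 at days 4, 11 and 18, Cenpf at -0.046 at day 4, and Kif4 and Mki67 at -0.028 and -0.020 at day 18. Under quantile normalisation Anln was at -0.0091 and Mki67 at -0.085 at day 18, and Cenpf at -0.012 at day 4. Cenpf at day 4 was at -0.00032 after median-of-ratios scaling and -0.027 with weights, and at day 18 it was at 0.069 with weights and 0.020 with depth in the model, where Ccnb1 was at 0.0050. Leaving out 1 sample gave -0.045 to 0.055, -0.032 to 0.083 and -0.095 to 0.10 for Anln at days 4, 11 and 18, -0.070 to 0.043 and -0.11 to 0.13 for Cenpf at days 4 and 18, and, at day 18, -0.088 to 0.0031 for Ccnb1, -0.021 to 0.056 for Kif4 and -0.054 to 0.17 for Mki67. The cause of these changes was not tested.

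Over all genes, sample weights gave 1817, 1914 and 2056 calls at days 4, 11 and 18, no trend 416, 521 and 987, and depth in the model 69, 442 and 1075, against 691, 792 and 1369. Scaling to equal totals turned the split of higher and lower calls from 357 and 334 to 250 and 517 at day 4, from 476 and 316 to 363 and 406 at day 11, and from 787 and 582 to 607 and 817 at day 18, and quantile normalisation gave 303 and 396 at day 4. No paired analysis was possible because replicate numbers follow accession order and pair no samples.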
